A study of Mus musculus with 10 samples.

Results

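Gene expression in gastrocnemius, the large calf muscle, was compared between founder (F0) mice at 28 weeks of age and their descendants at 8 weeks, an age at which the muscle is still growing. Arrays were chosen by the generation in their titles: 2 arrays of F0 muscle against 8 arrays of F1 and F2 muscle, which is 10 of the 10 arrays of the series. All animals were male C57BL/6 mice, an inbred strain, and each array carried total RNA pooled from 5 animals. The F0 EX pool came from mice given voluntary exercise, and the F0 SED pool from sedentary mice. F0 mice were mated with partners of the same exposure to give F1, and F1 littermates were bred to give F2. The descendants formed 4 groups of 2 pools each, F1 and F2 of EX and of SED ancestry; these animals were themselves sedentary. F0 differed from the descendants in age, in generation and breeding, and, for F0 EX, in its own exercise. These cannot be told apart in this design.

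Skeletal muscle fibres grow in length and girth after weaning while the connective tissue around them is laid down by fibroblasts and tendon cells. Fibrillar collagens form the load-bearing fibrils of that tissue, and a basement membrane of type IV collagen, laminins and nidogens wraps each fibre. Embryonic and cardiac forms of sarcomere proteins, imprinted growth genes and insulin-like growth factors are known for their activity in young, growing muscle, and muscle matrix turns over slowly in the adult.

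Signals are given on the log2 scale as deposited, so a difference of 1 is a 2-fold change, and the signal of one gene is not compared with that of another. Array medians over 35557 probe sets lay between 3.22 and 3.36. F0 SED and F1 EX pool 1 stood apart: their median correlations with the other arrays were 0.974 and 0.979, against 0.986 to 0.993 for the rest. The 2 F0 pools differed from each other by 0.5 or more at 2479 genes and the 2 F1 EX pools at 1830, while the other pairs of pools did so at 279 to 344 genes. The tissue was checked against 11 defining muscle genes, among them Acta1, Ckm, Mb and Ttn. Their mean signal was 12.04 in F0 EX, 11.86 in F0 SED and 11.95 to 12.10 in the descendants, and none was called. F0 SED thus read below all descendants at these genes too. Their median difference from the descendants of like ancestry was 0.02 for F0 EX and -0.39 for F0 SED. The lower quartile of signals was 2.48 in F0 SED and F1 EX pool 1 and 2.28 to 2.32 in the other arrays. Because the muscle was measured in bulk, fewer cells of a type and less RNA per cell cannot be told apart in any result here.

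A gene was called when limma's Benjamini-Hochberg adjusted p reached 0.05 and both F0 pools also lay on the same side of all 8 descendant pools. This held for 276 of 11963 genes, 2.31% of those tested. In F0, 95 genes (0.794%) were higher and 181 (1.51%) lower, and 19 and 28 of them respectively differed by 2-fold or more. The median difference over all tested genes was -0.02. By position alone, without a test, both F0 pools lay outside the range of the descendants at 1488 genes (12.4%), 693 higher (5.79%) and 795 lower (6.65%). The last called gene had an adjusted p of 0.05 and the first left out 0.0501. The adjusted p was reached without separation at 3 genes, Cpxm2, Depp1 and Mlf1, whose F0 EX pool overlapped the descendants. The p-values measure the spread between these pools, which may in part be technical.

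**Figure D1:**
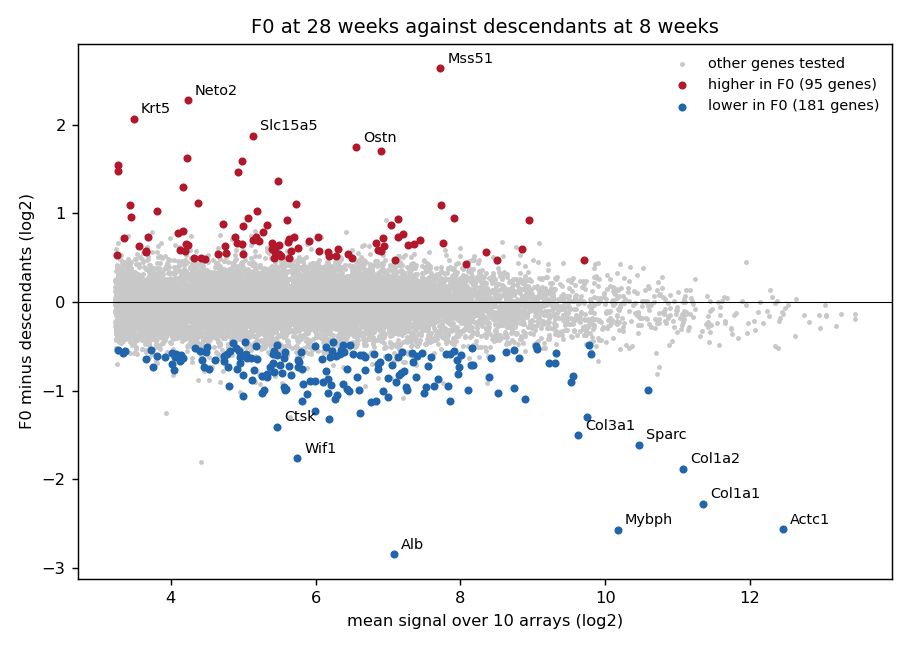
Difference between F0 and descendants (log2, vertical axis) against mean signal over 10 arrays (log2, horizontal axis) for each gene tested. Red points are the 95 genes higher in F0, blue points the 181 lower, and grey points all other genes. At high mean signal (above 10) Actc1, Col1a1, Col1a2, Sparc and Mybph stand apart from the grey points, all on the lower side.

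The number of calls depended on the F0 pools. Without F0 SED 86 genes were called (0.719% of those tested), 71 of them among the 276, and without F0 EX 1228 (10.3%). Without F1 EX pool 1 the count was 568 (4.75%), and leaving out any other descendant pool gave 180 to 223. A set of 53 genes (0.443% of those tested), 18 higher (0.15%) and 35 lower (0.293%) in F0, was called in each of the 10 fits that left out 1 array. For these genes the difference was called with either F0 pool alone. Where values without F0 SED are given below, they equal the difference in the EX arm. At 6 of the 95 genes that rose the descendant mean, and at 5 of the 181 that fell the F0 mean, was below the signal filter of 3.23, so that these genes passed it through their higher group.

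Genes of the extracellular matrix were the main group among those lower in F0. Of 106 tested genes in 6 lists of matrix genes, 42 fell, which is 39.6% against 1.51% of all genes, and 0 rose. Their median difference was -0.45, and 95 of the 106 estimates were below 0. They made up 23.2% of the genes that fell. Without F0 SED 23 of the 106 were called lower, against 0.426% of all genes in that fit, and without F0 EX 42, against 7.64%. In each leave-one-out fit 18 held.

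Fibrillar and fibril-associated collagens carried the largest share. Of 17 members 12 fell, with a median over all 17 of -0.81, and 8 of the 12 held in each leave-one-out fit. Col1a1 and Col1a2 code for the chains of type I collagen, the main collagen of tendon and muscle connective tissue. Col1a1 read 9.51 and 9.56 in the F0 EX and F0 SED pools, against 11.65, 11.74 and 12.06 as the lowest, median and highest descendant pool. The gap of 2.08 between the F0 pools and the nearest descendant pool was the widest of all 276 genes. F0 was lower by 4.84-fold (log2 difference -2.27, SE 0.117, limma adjusted p = 1.47e-06). Col1a2 read 9.74 and 9.40 in F0 against 11.26, 11.40 and 11.75, a 3.68-fold difference (-1.88, SE 0.114, adjusted p = 4.99e-06). Col3a1, the gene of type III collagen, which forms mixed fibrils with type I, read 8.35 and 8.49 against 9.72, 9.89 and 10.15 (-1.50, SE 0.119, adjusted p = 4.67e-05). Within each of these 3 genes the F0 pools lay closer to each other than to any descendant pool.

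Some chains of other collagens fell as well. Col5a1, Col11a2, Col16a1, Col24a1 and Col27a1 were not called (-0.52, -0.61, -0.33, -0.09 and -0.16, with adjusted p = 0.0912, 0.0707, 0.201, 0.736 and 0.552). Col5a2, a chain of type V collagen, which sets fibril diameter, fell by 1.13 (adjusted p = 0.000398) and Col11a1 of type XI fell by 0.99 (adjusted p = 0.00817). The type VI chains Col6a3, Col6a2 and Col6a1, which form beaded microfilaments near the fibre surface, differed by -1.12, -0.95 and -0.81 (adjusted p = 0.000282, 0.00479 and 0.0113). Col12a1, a collagen on the surface of fibrils, fell by 0.98 (adjusted p = 0.0075). The smallest called differences were those of Col5a3 (-0.78), Col14a1 (-0.60) and Col2a1 (-0.55). Without F0 SED these last genes stood at -0.82, -0.74 and -0.63 with adjusted p = 0.0721, 0.0661 and 0.0721. Without F0 EX Col6a1, Col14a1 and Col2a1 stood at -0.48, -0.46 and -0.47 with adjusted p = 0.0525, 0.0797 and 0.0511. Col14a1 was also not called without F2 SED pool 2.

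The 250 bases before the start of Col1a2 are shown because type I collagen gave the most widely separated fall, and the CCAAT motif, a binding sequence of the factor NF-Y, is in capitals. The sequence is from RefSeq (GRCm38.p6, chr6:4505368-4505617, plus strand).
Col1a2: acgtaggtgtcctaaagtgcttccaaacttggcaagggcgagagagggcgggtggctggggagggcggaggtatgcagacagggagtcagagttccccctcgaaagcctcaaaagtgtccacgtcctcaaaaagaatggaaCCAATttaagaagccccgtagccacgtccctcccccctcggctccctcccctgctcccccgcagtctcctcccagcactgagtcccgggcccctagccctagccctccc
The motif begins at position -109 from the start, and CCAAT on either strand is present in 33.8% of 32851 RefSeq windows of this length. TATAAA, present in 12.4% of them on either strand, is not among these letters.

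Proteins that fold, carry or crosslink collagen were lower at 7 of 24 members (median -0.28). Sparc, a collagen-binding matrix protein, read 9.18 in both F0 pools against 10.65, 10.75 and 11.01 in the descendants (-1.61, SE 0.104, adjusted p = 8e-06). No F0 pool came within 1.47 of a descendant pool. Lox, the enzyme that starts collagen crosslinks, fell by 0.98 (adjusted p = 0.00803) and Serpinh1, the collagen chaperone HSP47, by 0.87 (adjusted p = 0.00414). Without F0 SED these genes stood at -1.0 and -0.82 (adjusted p = 0.0975 and 0.0766), as did Sec24d, a coat protein of collagen export, at -0.52 (adjusted p = 0.224; -0.58 with all arrays). Pcolce, an enhancer of procollagen processing, and Bmp1, the protease it aids, fell by 0.71 and 0.59 (adjusted p = 0.0378 and 0.0441); they held in 3 and 2 of the 10 leave-one-out fits and without F0 SED stood at -0.96 and -0.40 (adjusted p = 0.0656 and 0.376). Of this list Sparc alone held in each leave-one-out fit, and 1 gene was called without F0 SED.

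The basement membrane was lower at 11 of 16 members (median -0.67), and 6 of these held in each leave-one-out fit. Pxdn, the peroxidase that crosslinks type IV collagen, read 5.67 and 5.54 in F0 against 6.69, 6.83 and 7.07 (-1.25, SE 0.117, adjusted p = 0.000192). Both F0 pools lay more than 1 below the lowest descendant. Col4a1 and Col4a2, the chains of type IV collagen, differed by -0.96 and -0.95 (adjusted p = 0.00803 for each). Their fall was -1.35 and -1.30 in the EX arm and -0.56 and -0.61 in the SED arm, and the difference between arms was not called. Nid1, which links laminin to type IV collagen, fell by 1.03 (adjusted p = 0.00188) and the laminin chain Lamb1 by 0.78 (adjusted p = 0.00261). Col15a1 fell by 0.83 (adjusted p = 0.0199) and without F0 EX stood at -0.53 (adjusted p = 0.104).

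**Figure D2:**
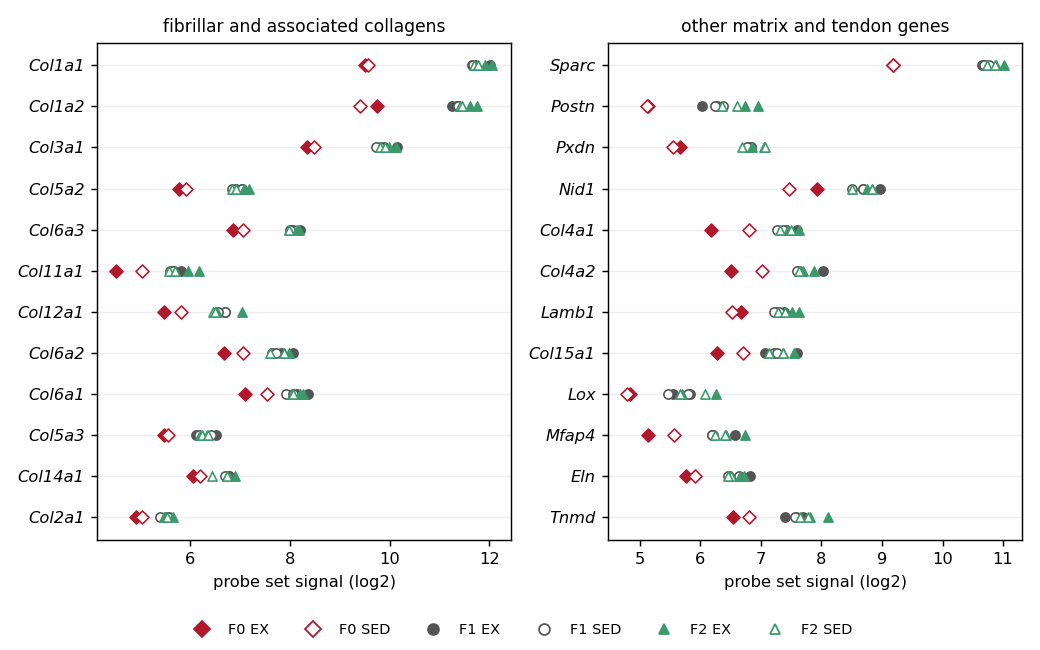
Probe set signal (log2, horizontal axis) of the 12 called collagens of fibrils (left) and of 12 other matrix and tendon genes (right), with 1 symbol per pool; diamonds are F0, circles F1 and triangles F2, filled for EX and open for SED. In every row both diamonds lie to the left of all 8 descendant symbols, with the widest gap at Col1a1 (2.08).

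Elastic fibre genes fell at 4 of 15 members. These were Mfap5, Mfap4, Mfap2 (microfibril-associated proteins) and Eln (elastin), with differences of -1.12, -1.02, -0.89 and -0.75 (adjusted p = 0.00414, 0.00587, 0.00335 and 0.00803). Mfap4 and Eln held in each leave-one-out fit, while Mfap5 and Mfap2 without F0 SED stood at -0.79 and -0.76 (adjusted p = 0.102 and 0.0766). Of matricellular proteins and remodelling enzymes 6 of 24 fell (median -0.45). Cthrc1, 1 of these 6, had an F0 mean of 3.14, below the signal filter of 3.23, and passed it through the descendants (mean 3.78). Postn, or periostin, a protein of tissues under load, read 5.14 and 5.12 in F0 against 6.02, 6.37 and 6.95 (-1.31, SE 0.143, adjusted p = 0.000665). The other members that fell were Fn1, Thbs4, Thbs3, Cthrc1 and Mmp14, by 0.62 to 1.10, and none of them was called without F0 SED, where Thbs4, Thbs3, Cthrc1 and Mmp14 stood at -0.53, -0.45, -0.57 and -0.73 (adjusted p = 0.244, 0.351, 0.113 and 0.0677). Fn1 and Thbs3 held in 3 and 2 of the 10 leave-one-out fits, and Mmp14 was also lost without F0 EX (-0.50, adjusted p = 0.0591). Fn1, fibronectin, touched the descendants: F0 EX and the lowest descendant pool both read 8.40, only 0.002 apart, and its value without F0 SED was -0.66 (adjusted p = 0.373). Of 10 small leucine-rich proteoglycans, which bind collagen fibrils, 2 fell, Kera (-1.09, adjusted p = 0.00378) and Fmod (-0.90, adjusted p = 0.00737); without F0 SED they stood at -0.94 and -0.61 (adjusted p = 0.0897 and 0.146).

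Markers of the cells that make matrix moved unequally. Of 17 tendon and cartilage genes 6 fell (35.3%, against 1.51% of all genes), with a list median of -0.40. Among them were Tnmd, tenomodulin, at 6.54 and 6.81 against 7.39, 7.67 and 8.10 (-1.02, adjusted p = 0.00262), and Cilp2 (-1.0, adjusted p = 0.00262). Chad, chondroadherin, fell by 0.86 (adjusted p = 0.0297) and was not called without either F0 pool, F1 SED pool 2 or F2 EX pool 1 (-0.84, adjusted p = 0.222 without F0 SED; -0.88, adjusted p = 0.0579 without F0 EX). Scx, the transcription factor that defines tendon cells, overlapped between groups, at 5.20 and 5.53 in F0 and 5.20 to 5.96 in the descendants. The mean signal of the tendon list was 5.75 to 5.85 in F0 and 6.13 to 6.51 in the descendants. Of 14 fibroblast and fibro-adipogenic genes 4 fell, Mfap5, Pcolce, Thy1 and Vim, and 0 were called without F0 SED, where they stood at -0.79, -0.96, -0.65 and -0.39 (adjusted p = 0.102, 0.0656, 0.0707 and 0.282). Pcolce and Vim held in 3 of the 10 leave-one-out fits. The defining receptor Pdgfra was at 7.58 and 7.52 in F0 and 7.37 to 8.04 in the descendants (-0.04, adjusted p = 0.924), and Dpt also overlapped. The fibroblast list averaged 6.54 to 6.69 in F0 and 6.86 to 7.05 in the descendants. Its called genes were 28.6% of the list, against 1.51% of all genes. Mfap5 and Pcolce were also counted among the matrix genes above, so that the lists overlap. The part of fibroblast and tendon cell numbers in the matrix falls was not tested.

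Ctsk, cathepsin K, a protease that cleaves collagen, fell as well, from 5.40, 5.77 and 6.08 in the descendants to 4.98 and 3.72 in F0 (-1.41, SE 0.175, adjusted p = 0.00188). Both F0 pools were below all descendants, with F0 SED the lower. Itm2a, a membrane protein expressed in muscle and cartilage, fell from a descendant median of 10.03 to 9.0 and 8.43 (-1.29, SE 0.139, adjusted p = 0.000605).

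Within the contractile apparatus the fall was limited to a few genes, and they included some of the largest of the data. Of 20 developmental sarcomere genes 6 fell (30%, against 1.51% of all genes), with a list median of -0.12. Mybph codes for myosin-binding protein H of the thick filament. It read 8.45 and 7.80 in the F0 EX and F0 SED pools, against 10.30, 10.75 and 11.01 in the descendants, 5.92-fold lower in F0 (-2.57, SE 0.152, adjusted p = 4.99e-06). Actc1, the cardiac actin made in developing skeletal muscle, read 10.95 and 9.86 against 12.69, 12.98 and 13.21, a 5.89-fold difference (-2.56, SE 0.188, adjusted p = 2.51e-05). All F2 pools of Actc1 (13.12 to 13.21) lay above all F1 pools (12.69 to 12.84), and both generations lay well above F0. In the EX and SED arms the Actc1 difference was -2.0 and -3.11, and this difference between arms had an adjusted p of 0.077.

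The 250 bases before the start of Actc1 are shown because Actc1 and Mybph were the sarcomere genes with the largest falls, and its CArG box, the binding sequence of serum response factor, is in capitals; this motif was added after these letters were seen. The sequence is from RefSeq (GRCm38.p6, chr2:114052876-114053125, minus strand).
Actc1: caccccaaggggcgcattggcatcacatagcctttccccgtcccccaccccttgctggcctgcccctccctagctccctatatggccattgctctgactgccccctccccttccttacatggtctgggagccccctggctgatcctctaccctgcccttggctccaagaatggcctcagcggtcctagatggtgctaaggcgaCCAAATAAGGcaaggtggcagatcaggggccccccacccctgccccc
The box begins at position -47, and a CArG box on either strand is present in 1.47% of the 32851 windows. A CCAAT motif on the reverse strand lies at position -235, and TATAAA is not among these letters.

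The other developmental genes that fell were Tpm4, a cytoskeletal tropomyosin (-1.07, adjusted p = 0.00801), Cnn3, calponin 3 (-0.61, adjusted p = 0.00763), Myl4, the embryonic light chain (-0.57, adjusted p = 0.0161), and Nes, nestin (-0.54, adjusted p = 0.0373). Without F0 SED these stood at -0.65, -0.52, -0.58 and -0.60 (adjusted p = 0.146, 0.109, 0.125 and 0.154). The call of Nes held in 3 of the 10 leave-one-out fits. The embryonic and neonatal myosins were not called and overlapped between the groups. Myh3 read 2.87 and 3.37 in F0 against 3.11 to 3.40, and Myh8 5.23 and 4.76 against 4.97 to 5.39 (adjusted p = 0.525 and 0.362).

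The adult myosins also overlapped. Of 19 fast fibre genes 0 were called by limma (5 at an unadjusted p of 0.05, and 1 was called higher after quantile normalization). At the share over all genes, 2.31%, a list of this size could hold no call. Myh4, the fast myosin of this muscle, read 13.14 and 12.73 in the F0 EX and F0 SED pools, against 12.60 to 13.20 (-0.15, adjusted p = 0.675). Myh1 was at 11.85 and 11.12 against 11.44 to 11.82, and Myh2 at 11.57 and 11.33 against 11.26 to 11.61. Myh7, the slow myosin, was at 9.29 and 8.61 against 8.89 to 9.42 (-0.24, adjusted p = 0.356). Of 19 slow fibre genes Pln alone rose. Pln, phospholamban, inhibits the calcium pump of the sarcoplasmic reticulum and read 5.60 and 4.94 in F0 against 3.75, 4.21 and 4.74 (1.11, adjusted p = 0.0211). It was not called without F0 SED (1.42, adjusted p = 0.0665) or without F0 EX (0.80, adjusted p = 0.104).

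Growth-related genes fell in part. Of 21 imprinted growth genes 6 fell (28.6%, against 1.51% of all genes) and 0 rose, with a list median of -0.31. Igf2, the fetal insulin-like growth factor, read 5.75 and 5.53 in F0 against 6.23, 6.65 and 6.80 (-0.93, SE 0.107, adjusted p = 0.00105). Peg3, a zinc finger gene expressed from the paternal allele, read 4.70 and 5.10 against 5.49, 5.71 and 5.89 (-0.80, SE 0.115, adjusted p = 0.00414). Both held in each leave-one-out fit, and in both the F0 pools lay 0.39 or more below the descendants. Mest, Grb10, Meg3 and Ndn fell by 1.06, 0.80, 0.76 and 0.75 (adjusted p = 0.00657, 0.0093, 0.0134 and 0.0175), and without F0 SED they stood at -1.16, -0.63, -0.60 and -0.53 (adjusted p = 0.0589, 0.161, 0.205 and 0.259). Dlk1 overlapped, at 4.51 and 4.92 against 4.71 to 5.52 (adjusted p = 0.269).

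In the insulin-like growth factor axis 4 of 19 genes fell (21.1%, against 1.51% of all genes): Igf2, Igfbp7, Igf1 and Irs1. The list median was -0.10. Igf1, which drives fibre growth, read 6.20 and 6.14 in F0 against 6.69, 6.76 and 6.88 (-0.60, SE 0.0987, adjusted p = 0.00812). The 8 descendant pools lay close together and both F0 pools at least 0.49 below them; without F0 SED the call was lost (-0.56, adjusted p = 0.10). Irs1, an adaptor of the insulin and growth factor receptors, and Igfbp7 differed by -0.60 and -0.63 and without F0 SED stood at -0.45 and -0.64 (adjusted p = 0.228 and 0.146). Ccnd1, cyclin D1, which carries cells through the first phase of the cycle, read 5.30 and 4.80 against 5.91, 6.11 and 6.23 (-1.04, SE 0.119, adjusted p = 0.00103) and held in each leave-one-out fit. It was the 1 called gene of the 14 cell cycle genes tested (7.14%, against 2.31% of all genes), too few to set the list apart. Of 35 cell cycle genes on the array only these 14 passed the signal filter, so most were not tested. Mki67 and Top2a, which mark dividing cells, were below the signal filter, at 2.39 and 2.53, and 2.27 and 2.54, in F0 against 2.53 to 3.03 and 2.67 to 3.32.

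**Figure D3:**
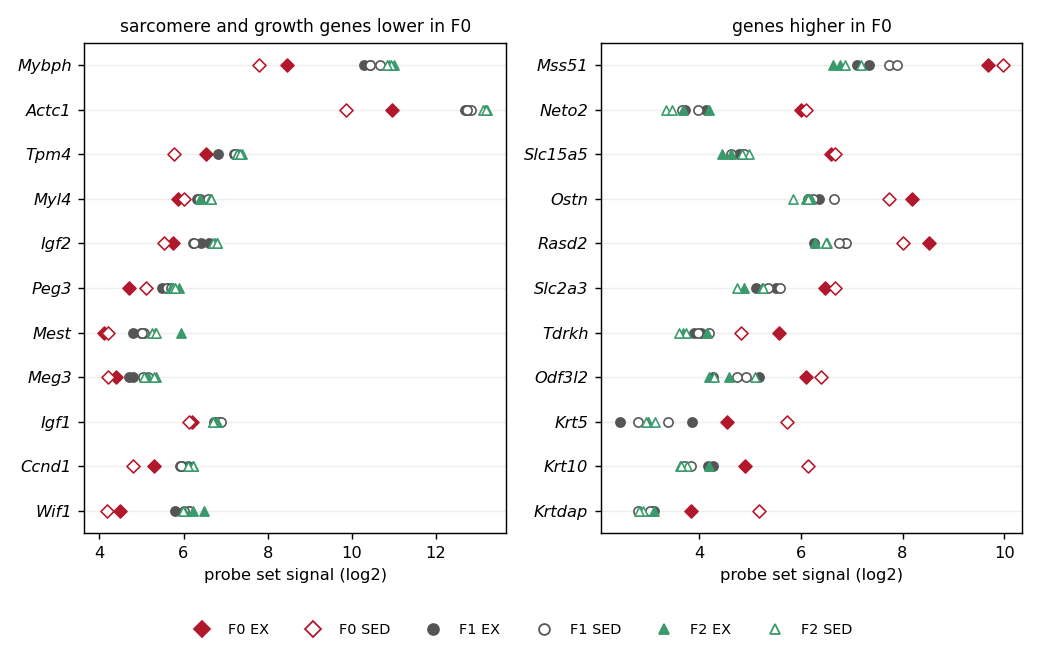
Probe set signal (log2, horizontal axis) of sarcomere and growth genes that fell (left) and of genes that rose (right), with 1 symbol per pool; diamonds are F0, circles F1 and triangles F2, filled for EX and open for SED. Both F0 pools lie outside the descendants in every row, and at Krt5, Krt10 and Krtdap the 2 F0 pools lie more than 1 apart.

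Regulators of fibre mass and regeneration were called at 5.88% in the myostatin, activin and BMP list and at 3.57% in the myogenic list. The share over all genes was 2.31%, and these counts are too small to set the lists apart from it. Mstn, myostatin, the secreted inhibitor of muscle growth, read 8.54 and 8.03 in F0 against 6.98 to 8.05 (0.42, adjusted p = 0.37), with F1 EX pool 1 at 6.98 far below the other descendants. Of 34 genes of the myostatin, activin and BMP axis 1 rose and 1 fell. Acvr1, a BMP receptor, rose by 0.60 and Fstl1, a secreted follistatin-like protein, fell by 0.94 (adjusted p = 0.022 and 0.00346); without F0 SED they stood at 0.42 and -0.77 (adjusted p = 0.274 and 0.0815). Acvr1 was also not called without F2 EX pool 2 or F2 SED pool 2. Of 28 myogenic regulators and satellite cell genes only Hes1, a target of Notch, was called (0.64, adjusted p = 0.0472); it read 5.71 and 6.32 against 5.27 to 5.56 and held in 2 of the 10 leave-one-out fits (0.27, adjusted p = 0.459 without F0 SED). Pax7 and Myog, markers of satellite cells and of their differentiation, were not called (-0.16 and -0.36, adjusted p = 0.532 and 0.0976).

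Wif1, a secreted inhibitor of Wnt ligands, had 1 of the 12 largest falls. It read 4.50 and 4.18 in F0 against 5.79, 6.08 and 6.49 (-1.76, SE 0.143, adjusted p = 5.28e-05), with a gap of 1.30. Of 26 Wnt genes 11.5% were called, against 2.31% of all genes, and the list median was 0.00. Besides Wif1, Wnt5a fell (-0.95, adjusted p = 0.016) and Dkk3 rose (0.73, adjusted p = 0.024). Without F0 SED these stood at -0.53 and 0.51 (adjusted p = 0.263 and 0.301), and Dkk3 was also lost without F1 EX pool 2, F2 EX pool 2 or F2 SED pool 1.

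Genes higher in F0 formed no group as broad as the matrix: 81 of the 95 were in none of the 54 lists. Among the 181 genes that fell, 104 were in none of them. Mss51, a protein with a zinc finger that in muscle is found with mitochondria, rose most. It read 9.68 and 9.98 in the F0 EX and F0 SED pools, against 6.64, 7.15 and 7.90, 6.22-fold higher (2.64, SE 0.129, adjusted p = 1.47e-06). Its F1 pools read 7.10 to 7.90 and its F2 pools 6.64 to 7.19, so that the generations overlapped. Mss51 had been placed in the list of excitation and calcium genes, in which it alone rose, while Sypl2, a protein of the triad membrane, fell by 0.57 (adjusted p = 0.0167; -0.56, adjusted p = 0.14 without F0 SED).

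Neto2, an auxiliary subunit of kainate receptors, read 6.00 and 6.10 in F0 against 3.36, 3.70 and 4.20 (2.28, SE 0.179, adjusted p = 4.49e-05). Slc15a5, of the peptide transporter family, read 6.59 and 6.68 against 4.46, 4.82 and 4.99 (1.87, SE 0.13, adjusted p = 1.47e-05). The F0 pools lay close together at both genes, far above every descendant. Ostn, osteocrin or musclin, a peptide that muscle secretes, read 8.19 and 7.73 against 5.84, 6.18 and 6.66 (1.75, SE 0.159, adjusted p = 0.000159), higher in the exercised than in the sedentary F0 pool. Rasd2, a small G protein related to Ras, showed the same order, at 8.52 and 8.01 against 6.26, 6.51 and 6.88 (1.70, SE 0.176, adjusted p = 0.000418). At neither gene was the difference between arms called, and each order rests on 1 pool per arm. Slc2a3, the glucose transporter GLUT3, read 6.48 and 6.68 against 4.75, 5.25 and 5.59 (1.37, SE 0.16, adjusted p = 0.0012). Tdrkh, a tudor domain protein of the piRNA pathway, rose by 1.29 (adjusted p = 0.00268). All of these held in each leave-one-out fit. Odf3l2 rose by 1.59 (adjusted p = 0.00414) and stood at 1.55 without F0 SED (adjusted p = 0.0767).

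Smaller rises were found in 3 other lists. Calls in either direction made up 6.45% of antioxidant enzymes, 8.33% of cyclin-dependent kinase inhibitors and 10% of junction genes, against 2.31% of all genes. These counts are too small to set the lists apart. The list medians were 0.04, -0.09 and -0.19, and of the antioxidant estimates 15 were below 0 and 16 above. Among 31 antioxidant enzymes Nqo1, a quinone reductase, and Gpx3, the secreted glutathione peroxidase, rose by 0.93 and 0.73 (adjusted p = 0.0144 and 0.013), and Cdkn2c, an inhibitor of cyclin-dependent kinases, rose by 0.87 (adjusted p = 0.0115). Without F0 EX the 3 genes stood at 0.49, 0.55 and 0.66 (adjusted p = 0.0679, 0.0597 and 0.0586). At the neuromuscular junction Musk, the receptor kinase that gathers acetylcholine receptors, read 8.58 and 8.01 against 7.31 to 7.72 (0.67, adjusted p = 0.0307), and Agrn, the nerve- and muscle-derived agrin that acts through it, read 4.24 and 3.50 against 4.35 to 4.86 (-0.74, adjusted p = 0.0396). Musk held in 4 of the 10 leave-one-out fits (0.40, adjusted p = 0.145 without F0 EX) and Agrn in 3 (-0.40, adjusted p = 0.414 without F0 SED), and neither was called after centring the arrays.

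Several skin genes rose, and Krt5, Krt10 and Krtdap read higher in F0 SED than in F0 EX. Of 7 keratinocyte markers tested 4 were called higher, against 0.794% of all genes. The other 3 were not called, and the lowest estimate of the list was -0.02. Krt5, a keratin of basal epidermis, read 4.55 and 5.73 in F0 against 2.45, 3.0 and 3.87 (2.07, SE 0.32, adjusted p = 0.00623). Krt10, of the upper epidermis, read 4.91 and 6.14 against 3.63, 3.80 and 4.27, and Krtdap, of differentiating keratinocytes, 3.85 and 5.18 against 2.81, 2.96 and 3.12 (1.63 and 1.55, adjusted p = 0.00803 and 0.00657). Krt77 rose by 1.47 and Trp63 by 0.67 (adjusted p = 0.00683 and 0.0349). Krt5, Krtdap and Krt77 had descendant means below the signal filter and passed it through the F0 pools. Krt14 was not called, at 3.95 and 4.0 against 3.30 to 3.80 (adjusted p = 0.112). Over all 13 keratinocyte markers on the array, those below the filter included, the mean was 3.88 in F0 EX, 4.44 in F0 SED and 3.12 to 3.51 in the descendants. Of the 6 below the filter, Krt1, Krt15, Dsp and Dmkn had both F0 pools above all descendants. Krt17 (2.58 to 2.62 in F0, 2.49 to 2.77 in the descendants) and Lor (3.2 to 4.22, against 2.35 to 3.22) overlapped. Without F0 SED the values were 1.47 for Krt5, 0.85 for Krt10, 0.89 for Krt77 and 0.81 for Trp63 (adjusted p = 0.151, 0.103, 0.134 and 0.112), while Krtdap stayed called. Trp63 held in 4 of the 10 leave-one-out fits. Whether skin or other tissue was carried into the F0 pools was not tested.

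Alb, serum albumin, a liver product, showed the largest called fall, with a wide spread among the descendants: 5.66 and 3.95 in F0 against 6.23, 7.33 and 10.04 (-2.85, SE 0.569, adjusted p = 0.0222). Without F0 SED its value was -2.16 (adjusted p = 0.301). Of 8 liver markers tested Alb alone was called, and the mean of the list was 4.07 to 4.42 in F0 and 4.49 to 6.66 in the descendants, with F2 EX pool 1 the highest. The part of liver or blood RNA in this was not tested.

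No gene of the energy lists was called. Of 152 genes of oxidative phosphorylation, the tricarboxylic acid cycle, glycolysis, fatty acid use and glycogen metabolism, limma called 0, against 2.31% of all genes. At that share few calls would fall on 152 genes, so the count does not show that these genes were unchanged. At an unadjusted p of 0.05 there were 27, and 1 tricarboxylic acid cycle gene was called higher after quantile normalization. Without F0 EX, with F0 SED as the only F0 pool, 30 were called lower and 1 higher, against 7.64% and 2.62% of all genes in that fit, and without F0 SED 0 were called. Cs, citrate synthase, read 10.93 and 10.38 in the F0 EX and F0 SED pools, against 10.60 to 11.04, and Ppargc1a, a coactivator of mitochondrial genes, 7.13 and 6.36 against 6.52 to 7.0. Pdk4, which restrains glucose oxidation, read 10.67 and 9.65 against 10.54 to 11.04 (-0.73, adjusted p = 0.0707), and Cd36, the fatty acid transporter, 9.80 and 8.68 against 8.73 to 9.74. At each of these 4 genes F0 SED lay below all descendants. F0 EX lay within their range at Cs and Pdk4 and above it at Ppargc1a and Cd36. F0 SED was also below all descendants in the mean of the 11 defining muscle genes. Pvalb, the calcium buffer of fast fibres, read 12.92 and 12.55 against 12.90 to 13.12 (adjusted p = 0.198).

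Markers of other resident cells were counted in the same way. Of 24 endothelial genes 4 fell, Aplnr, Pecam1, Cdh5 and Ptprb, by 0.99, 0.71, 0.62 and 0.58, and Aplnr, the apelin receptor, alone held in each leave-one-out fit (5.78 and 5.83 against 6.62 to 7.07). Without F0 SED Pecam1, Cdh5 and Ptprb stood at -0.47, -0.80 and -0.41 (adjusted p = 0.22, 0.0587 and 0.318), and Cdh5 and Ptprb held in 4 and 3 of the 10 leave-one-out fits. The endothelial list averaged 5.91 to 5.98 in F0 and 6.20 to 6.28 in the descendants. Its called genes were 16.7% of the list, against 1.51% of all genes lower in F0. Of 19 myeloid, 15 adipocyte, 14 pericyte and 12 Schwann cell genes 0 were called by limma, with 7, 5, 4 and 6 at an unadjusted p of 0.05. With 2.31% of all genes called, lists of this size could hold no call. Of 16 genes of DNA methylation Dnmt3a, a methyltransferase, and Tet3, a dioxygenase that oxidises methylcytosine, fell by 0.56 and 0.73 (adjusted p = 0.0175 and 0.0211), and without F0 SED stood at -0.48 and -0.57 (adjusted p = 0.19 and 0.257).

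**Figure D4:**
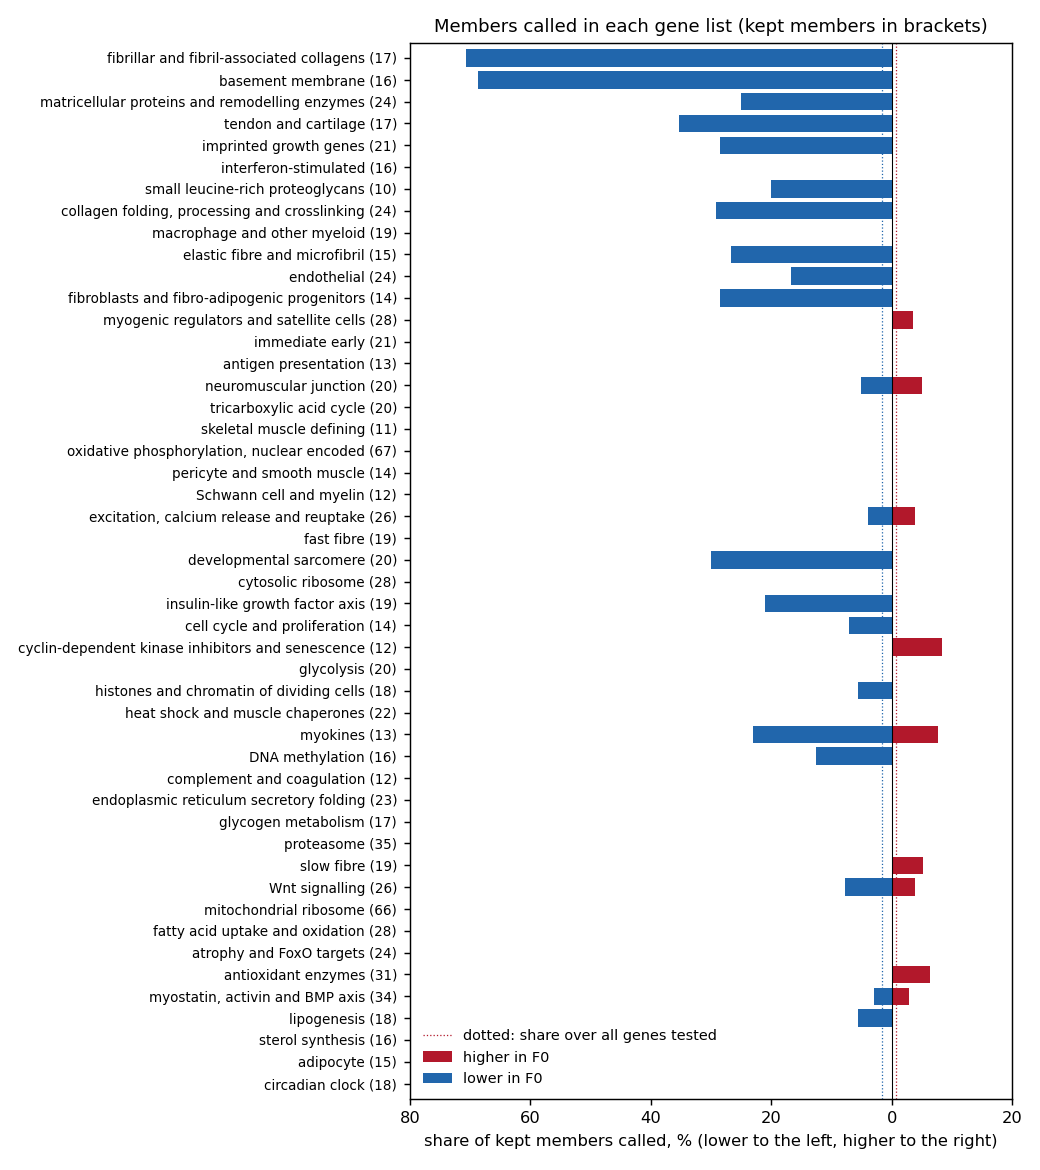
Share of kept members called higher (red, right) or lower (blue, left) in F0 for each list with 10 or more kept members, in percent, ordered by the median difference of the list; dotted lines mark the shares over all genes tested (1.51% lower, 0.794% higher). Fibrillar collagens (12 of 17) and basement membrane (11 of 16) have the longest bars, and the energy lists have none.

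The exercised and sedentary arms were set side by side, each as 1 F0 pool minus the mean of the 4 descendant pools of like ancestry. Over the 95 genes that rose the median difference was 0.70 in the EX arm and 0.71 in the SED arm, and over the 181 that fell -0.64 and -0.74. The arms lay within 0.5 of each other at 72 and 141 of these genes. This closeness was favoured by the calling rule, which required both F0 pools on the same side of the descendants. The additive fit also counted a difference between arms as spread, which made a call less likely. Arm differences among the 276 genes were therefore limited by how those genes were chosen. The arm difference was called at 1 of 11963 genes (0.00836%), with 2371 at an unadjusted p of 0.05, and at 0 of the 276 genes. That count became 126 after centring, 184 with trend and robust variance, 655 without F1 EX pool 1 and 1722 without F1 EX pool 2. This test was weak, since each arm has a single F0 pool: its 95% interval spanned 0.52 on either side at the median gene. The one called gene was Krtap5-3, a keratin-associated protein of hair, which read 5.94 in the F0 EX pool, 3.61 in the F0 SED pool and 5.31 to 5.93 in the descendants (2.35, SE 0.194, adjusted p = 0.00515). This rests on 1 reading of F0 SED, an array that stood apart. Krt5 and Krt10 were instead higher in F0 SED than in F0 EX.

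**Figure D5:**
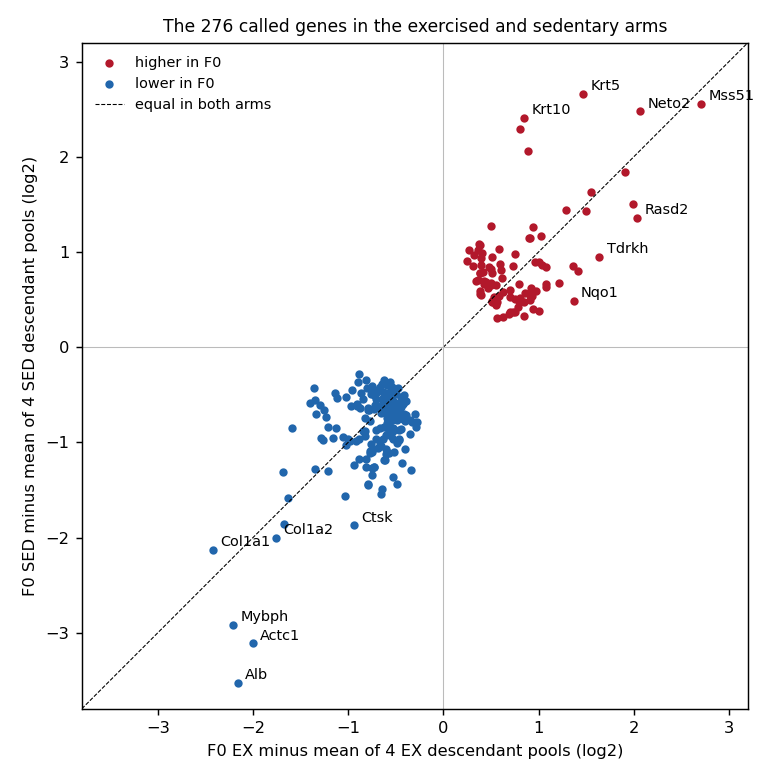
F0 EX minus the mean of 4 EX descendant pools (log2, horizontal axis) against F0 SED minus the mean of 4 SED descendant pools (log2, vertical axis) for the 276 called genes, red higher and blue lower in F0; the dashed line marks equal differences. Mss51 and Col1a1 lie near the line, Krt5 and Krt10 above it, and Actc1 and Alb below it.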

How the data were processed

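Per the labels' protocols, total RNA of gastrocnemius from 5 mice at 98 ng/µl was combined for each of 10 Affymetrix whole-transcript arrays, and biotin-labelled sense-strand cDNA was hybridised. The values used are log2 probe set signals in 1 table that the authors deposited (0.966 to 14.2 over 35557 probe sets); their range is the basis for calling them log2. Affymetrix Expression Console is the tool in the submitters' processing notes. How background was corrected and arrays were normalized is not given in the sources used. Neither detection calls nor scanner files were used, and precision is limited by the number of arrays.

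Gene names came from the platform annotation in GEO, which may be outdated: 21789 had 1 symbol, 1621 several and 12147 none, and 21698 matched a RefSeq table of assembly GRCm38.p6 that changed 0 symbols. A gene with several probe sets (999 of 19938) took the one with the highest mean. The 11963 genes whose mean reached the 40th percentile (3.23) were kept. limma 3.58.1 in R 4.3.3 (lmFit, eBayes) fitted generation and ancestry additively to 10 arrays, and the contrast was F0 minus the average of both descendant generations, with Benjamini-Hochberg adjustment over 11963 genes. F0 against descendants by ancestry came from a model of the 6 groups, with each single F0 pool assumed to vary like the descendant pools. On simulated data of 11963 genes for F0 against descendants, the fit recovered 35.3%, 90% and 100% of genes changed by 0.5, 1 and 2 (log2). By ancestry it recovered 0%, 18.6% and 80.6%. Simulated F0 arrays had the spread of the descendants. The real F0 pools differed by 0.5 or more at 2479 genes, against 279 to 1830 for the pairs of descendant pools. The F0 pair also set an exercised against a sedentary pool, while each descendant pair came from a single group. Recovery was scored on adjusted p and direction, without the separation rule. These rates may therefore be too high for the calls reported.

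The comparison, the 54 gene lists and the named genes were chosen with earlier results of these data known. Named genes were drawn from the 12 largest rises and falls, the 6 largest called differences of each list, all called fibrillar collagens and a set of muscle genes whatever their values; predicted genes were counted and not named. Cpxm2, Depp1, Mlf1, Krt1, Krt15, Krt17, Lor, Dsp, Dmkn, Col5a1, Col11a2, Col16a1, Col24a1, Col27a1, Scx, Pdgfra, Dpt and Krt14 were named after their values were seen or as defining markers. Lists were described by counts and medians, without a test. The alternatives tried were centring, quantile normalization, other filters, the mean over probe sets, other models and variance settings, F1 or F2 alone, a replicate block and leaving out arrays. Same-numbered pools did not deviate together (correlations -0.11 to 0.06), and F0 pools carry no number, so that pools were treated as unpaired. Promoter sequences came from RefSeq; none was used for Col1a1.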

Additional observations from a re-analysis of the deposited data

Results flagged for a closer look

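Of 41 genes examined for a pool far from the others, 4 had F1 EX pool 1 apart among the 8 descendant pools. The criterion, Dixon's 95% critical value, by itself marks about 1 group in 20 by chance, and genes read on one array are not independent. Cd36 read 8.73 in this pool against 9.47 to 9.74 in the other descendants, and Mstn 6.98 against 7.88 to 8.05. Myh1 read 11.44 against 11.66 to 11.82 and Myh4 12.60 against 13.10 to 13.20. None of these genes was called between F0 and descendants, with or without this pool.

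For Krtap5-3 the F0 difference was 2.35 higher in the EX arm than in the SED arm (limma adjusted p = 0.00515). Each arm has 1 F0 pool, and the value rests on 1 reading of F0 SED, 3.61 against 5.94 in F0 EX, on an array that stood apart.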

How the results depend on the processing

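The 276 calls became 425 with the 6 groups as cell means (172 higher), 38 with array weights (13 higher, 25 lower), 156 against F1 alone (44 higher, 112 lower) and 169 without F0 SED and F1 EX pool 1 together (90 lower); the cause was not tested. Under the other alternatives with all arrays (centring, quantile normalization, both filters, the mean over probe sets, 2 groups, trend and robust variance, F2 alone) they stayed between 220 and 359. Leaving out 1 array gave 86 to 1228 calls, 35 to 314 higher and 51 to 914 lower, and 1571 to 5540 separated genes, since fewer pools have to be on one side. With a replicate block on the pool numbers, which did not pair the samples, 216 genes were called, all of them among the 276. For the difference between arms, 1 call became 126 after centring, 184 with trend and robust variance, 4 when the lowest 60% of genes were dropped and 3 with no filter; leaving out 1 descendant pool gave 1 to 1722, with 655 without F1 EX pool 1 and 1722 without F1 EX pool 2, and the block left 1. Of 2037 values of 89 named called genes under 23 alternatives, 0 reversed and 308 lost the call; 26 genes were called under all 23. The 95% interval of the F0 difference was 0.29 to either side at the median gene, without adjustment for the number of genes; the smallest called differences were 0.43 and -0.45.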

Other observations

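The average of the interferon-stimulated genes was highest in 1 descendant pool. Averaged over 16 such genes, F1 SED pool 2 lay 0.85 above the mean of the 10 arrays on the log2 scale, while the other 7 descendant pools lay between -0.16 and 0.00 and the F0 pools at -0.10 and -0.37. The widest gaps were at Iigp1, Irgm1, Gbp7 and Gbp3, at 9.25, 7.84, 8.64 and 5.47 in this pool. The highest other descendants read 4.62, 5.38, 7.08 and 4.22. Not every gene was raised: Ddx58 was lowest in this pool among the descendants, and Rsad2, Ifi27l2a and Xaf1 were highest in other pools. The average of the antigen presentation genes was also highest in F1 SED pool 2 (0.70 over 13 genes), followed by F2 SED pool 2 (0.28). Here too single genes differed: Cd74 was highest in F2 SED pool 2, and Psmb8, Tap2 and Tapbp in F1 EX pool 1. No gene of either list was called by limma between F0 and descendants, against 2.31% of all genes, with 3 and 2 at an unadjusted p of 0.05.

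Genes of protein turnover and of the clock were counted as well. Over all genes 2.31% were called, a share at which lists of this size would hold few calls. Of 35 proteasome, 28 cytosolic ribosome and 66 mitochondrial ribosome genes limma called 0, with 3, 4 and 9 at an unadjusted p of 0.05. Of 24 atrophy and FoxO target genes 0 were called, with 10 at an unadjusted p of 0.05 and 1 called higher after quantile normalization. Of 18 circadian clock genes 0 were called, with 6 at an unadjusted p of 0.05; their median difference was 0.18.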
